A study of Mus musculus with 8 samples.

Results

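The genes described here encode the core DNA replication machinery of the mouse. They are 38 genes of 8 subcomplexes, the origin recognition complex, licensing factors, the MCM2-7 helicase, helicase activators, polymerase alpha-primase, polymerases delta and epsilon, the clamp with its loader, and Okazaki fragment maturation enzymes. They were listed by name and function, with earlier results of these data known. All 38 were found by symbol among the 43309 genes of the count table, and all 38 passed the low-count filter that left 16816 genes to test. The RNA came from mouse embryonic stem (ES) cells of strain J1 (129SV), which were grown feeder-free on gelatin in medium with serum and for which no treatment is named. A knockout genotype of Zbtb24, a zinc finger gene (1lox/1lox), was compared with the wild type (2lox/+), in which 1 allele carries loxP sites. Cells were lysed without RNA isolation, and the SMARTer Ultra Low kit turned polyadenylated RNA of 100 cells (about 1 ng of RNA) or 1000 cells (about 10 ng) into cDNA. Each of the 4 combinations of genotype and cell number has 2 libraries, 8 in all.

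Some features of the design limit what these groups represent. The series record describes 2 clones per genotype as biological replicates and the article describes more, and neither says which clone gave which library. Libraries of 1000 cells had 10 cycles of PCR and those of 100 cells had 18, so that cell number and cycle number cannot be told apart. Zbtb24 was counted at 244 and 201 fragments in the WT libraries of 1000 cells and at 197 and 269 in those of 100 cells. In libraries labelled KO it was counted at 526 and 545 fragments (1000 cells) and 532 and 494 fragments (100 cells), which goes against the label. Counts cover every exon of the gene and cannot show a deletion of part of it, so the groups are called labelled KO and WT throughout. All 8 ES cell markers examined (Pou5f1, Nanog, Sox2, Zfp42, Klf4, Esrrb, Lin28a and Dppa5a) were detected in every library, with summed levels of 3835 to 5083 cpm. Their levels differed between labels by the test described below. At 1000 cells 5 were higher and 3 lower in labelled KO libraries (log2 ratios of -0.41 to 1.59), and at 100 cells 4 and 2. By that test 41.5% of all genes were called at 1000 and 34.2% at 100 cells.

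Replication starts where the origin recognition complex binds DNA and, with Cdc6 and Cdt1, loads rings of the MCM2-7 helicase in G1 phase, a step that geminin (Gmnn) restrains. In S phase Cdc45 and the GINS complex join the helicase and activate it, polymerase alpha-primase lays down primers, and polymerases delta and epsilon extend them with the PCNA clamp, which the RFC complex loads. Many of these genes are known targets of E2F transcription factors, and ES cells, which have a short G1 phase and spend much of their cycle in S phase, transcribe them strongly.

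Promoters of the members that the results below turn on are shown first. RefSeq windows (GRCm38.p6, from 250 bases before to 50 bases after each annotated start, read along the gene) were held for 30 of the 38 members, and Gmnn, Mcm4, Gins1, Gins2, Gins4, Prim2, Pole and Rfc2 had no entry. The windows of 5 MCM2-7 genes are given because the members of that helicase moved together between cell numbers, and those of Pold1 and Pole2, polymerase subunits, because they moved in opposite directions. Capitals mark matches on either strand to 4 octamers of the E2F type (TTTCCCGC, TTTCGCGC, TTTGCCGC and TTTGGCGC), and matches that overlap each other form 1 run of capitals.
Mcm2, chr6:88898731-88899030 (-): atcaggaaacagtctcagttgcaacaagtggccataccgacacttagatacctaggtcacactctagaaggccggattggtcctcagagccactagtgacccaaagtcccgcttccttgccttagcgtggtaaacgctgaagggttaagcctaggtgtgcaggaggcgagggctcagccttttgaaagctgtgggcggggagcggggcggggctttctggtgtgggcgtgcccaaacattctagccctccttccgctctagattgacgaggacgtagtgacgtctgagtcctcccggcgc
Mcm3, chr1:20820263-20820562 (-): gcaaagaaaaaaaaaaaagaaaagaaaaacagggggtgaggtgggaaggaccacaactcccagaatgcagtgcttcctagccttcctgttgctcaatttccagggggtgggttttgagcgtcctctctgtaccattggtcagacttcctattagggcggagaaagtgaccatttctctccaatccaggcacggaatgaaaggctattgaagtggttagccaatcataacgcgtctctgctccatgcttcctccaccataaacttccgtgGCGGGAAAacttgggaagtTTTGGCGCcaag
Mcm5, chr8:75109259-75109558 (+): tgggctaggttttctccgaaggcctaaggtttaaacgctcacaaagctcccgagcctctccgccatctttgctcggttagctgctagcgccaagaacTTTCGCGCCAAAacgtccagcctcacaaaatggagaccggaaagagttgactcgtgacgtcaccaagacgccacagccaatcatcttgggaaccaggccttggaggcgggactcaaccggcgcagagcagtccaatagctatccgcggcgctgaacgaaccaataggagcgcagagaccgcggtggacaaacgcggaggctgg
Mcm6, chr1:128359656-128359955 (-): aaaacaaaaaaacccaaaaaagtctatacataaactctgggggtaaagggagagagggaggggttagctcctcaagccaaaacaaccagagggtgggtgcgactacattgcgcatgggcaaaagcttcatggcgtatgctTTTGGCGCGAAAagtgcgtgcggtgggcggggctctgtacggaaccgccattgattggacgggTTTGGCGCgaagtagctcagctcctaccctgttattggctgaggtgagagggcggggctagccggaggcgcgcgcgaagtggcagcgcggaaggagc
Mcm7, chr5:138171834-138172133 (-): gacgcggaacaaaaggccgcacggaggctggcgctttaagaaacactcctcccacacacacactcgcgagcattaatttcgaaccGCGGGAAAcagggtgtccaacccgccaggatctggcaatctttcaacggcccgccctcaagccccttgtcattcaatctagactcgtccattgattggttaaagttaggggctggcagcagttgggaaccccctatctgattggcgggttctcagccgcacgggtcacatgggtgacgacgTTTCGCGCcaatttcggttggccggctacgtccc
Pold1, chr7:44548766-44549065 (-): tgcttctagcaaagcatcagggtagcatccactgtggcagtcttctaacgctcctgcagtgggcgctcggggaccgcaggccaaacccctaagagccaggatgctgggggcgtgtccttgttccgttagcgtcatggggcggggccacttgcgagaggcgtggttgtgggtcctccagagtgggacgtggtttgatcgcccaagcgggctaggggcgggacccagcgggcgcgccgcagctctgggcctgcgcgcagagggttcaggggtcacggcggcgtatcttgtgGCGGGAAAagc
Pole2, chr12:69228141-69228440 (-): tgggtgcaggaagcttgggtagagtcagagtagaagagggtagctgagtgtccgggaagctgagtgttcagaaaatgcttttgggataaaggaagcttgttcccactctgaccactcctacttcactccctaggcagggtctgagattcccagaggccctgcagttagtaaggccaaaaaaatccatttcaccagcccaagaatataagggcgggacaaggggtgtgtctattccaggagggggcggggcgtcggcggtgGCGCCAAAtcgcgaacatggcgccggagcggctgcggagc

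The Mcm6 window held 3 such matches, those of Mcm3, Mcm5 and Mcm7 held 2 each (a second Mcm7 window, chr5:138171217-138171516, held 0), those of Pold1 and Pole2 held 1 each, and the Mcm2 window held none of these letters. Of the 30 members with a window, 15 had a match (50%), against 704 of 27025 genes with a window (2.6%). CCAAT, the core of the site read by the NF-Y factor, was found on either strand in 18 of 30 members (60%) and in 41.1% of all genes, and it shared bases with an E2F match in 1 of 38 member windows. The octamer CAGGACCT, described for ZBTB24, was in 0 of 30 members and in 2.3% of all genes. Members with an E2F match were spread over the calls given below. In the labelled KO libraries they were 8 of 13 members with a window that were higher at 100 than at 1000 cells, 5 of 11 that were lower and 2 of 6 that were not called. A match is a description of letters in a window and not evidence of binding.

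Levels are fragment counts scaled to a common library total after trimmed mean of M values (TMM) scaling, written cpm, and are means over libraries where a group is named. Total counts ran from 9666985 to 16686525 per library. Member levels ran from 1.42 cpm (Fen1) to 778 cpm (Mcm6) as means of 8 libraries. Apart from Fen1, no member was counted at fewer than 221 fragments in any library, and the median SD of replicates was 2.11% of the mean in labelled KO libraries of 100 cells, 2.97% and 3.05% in those of 1000 cells (WT and labelled KO) and 7.38% in WT libraries of 100 cells. Per kilobase of exon, Mcm6 (167 cpm per kb), Gmnn (138), Mcm5 (137) and Mcm3 (125) stood highest over 8 libraries, and Pole (7.496), Gins3 (8.26) and Pola2 (8.58) lowest apart from Fen1 (0.586). Counting ignored the strand, and 84.2% of Fen1 exon bases overlap Tmem258 and Gm10143 on the other strand. Fragments that match several genes were discarded by the authors, so the Fen1 value does not measure its level.

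**Figure D1:**
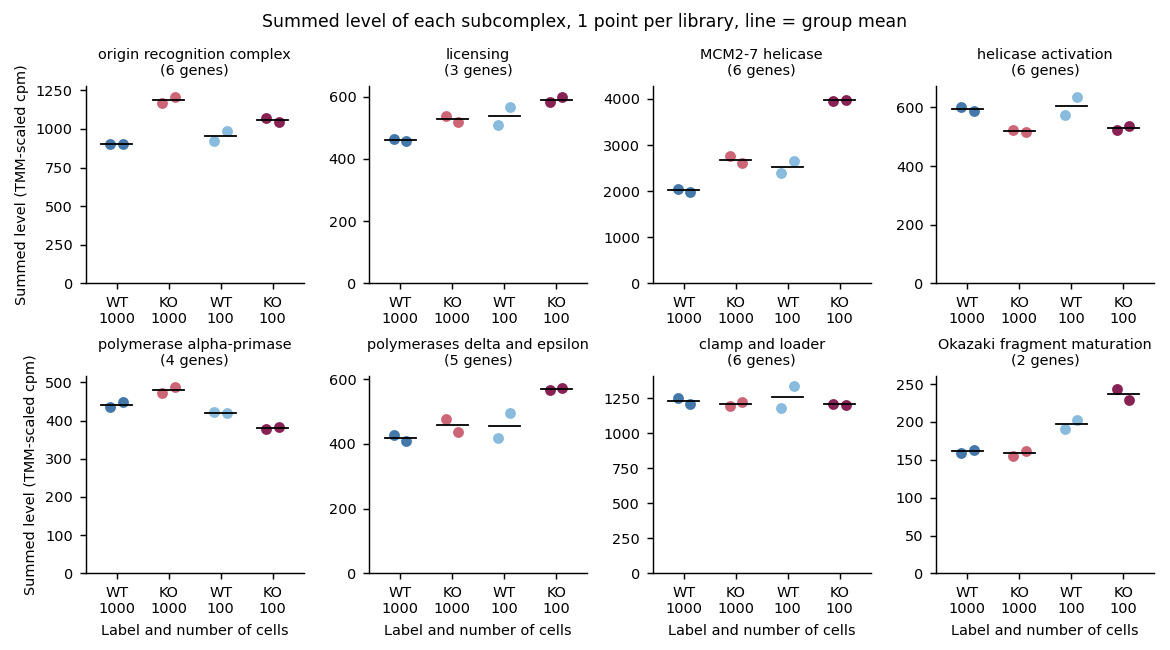
Summed level in TMM-scaled cpm (vertical axes from 0) of the members of each of the 8 subcomplexes, with 1 point per library, a line at the group mean, and groups by label and number of cells along the horizontal axes. The MCM2-7 helicase stood at 3959 and 3984 cpm in labelled KO libraries of 100 cells, above the other 6 libraries, while the clamp and loader genes overlapped across all 4 groups.

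Summed over all 38 members, levels were 6291 and 6159 cpm in WT libraries of 1000 cells, 7293 and 7154 cpm in labelled KO libraries of 1000 cells, 6615 and 7289 cpm in WT libraries of 100 cells, and 8528 and 8552 cpm in labelled KO libraries of 100 cells. The plot of summed levels by subcomplex shows that the MCM2-7 genes made up most of these differences. Their sum was 2049 and 1988 cpm in WT and 2765 and 2606 cpm in labelled KO libraries of 1000 cells, and 2396 and 2647 cpm against 3959 and 3984 cpm at 100 cells. At each cell number the labelled KO libraries lay above the WT libraries. Most of the difference at 1000 cells lay in Mcm6 and Mcm3, which are on chromosome 1. Mean levels there were 463 cpm (WT) and 835 cpm (labelled KO) for Mcm6, and 342 and 534 cpm for Mcm3. They were 308 and 402 cpm for Mcm4, 226 and 224 cpm for Mcm2, 415 and 440 cpm for Mcm5, and 265 and 249 cpm for Mcm7. The sum of the 6 helicase activation genes went the other way. It was 601 and 586 cpm in WT against 523 and 516 cpm in labelled KO libraries of 1000 cells, and 575 and 636 cpm against 524 and 536 cpm at 100 cells. Much of this fall lay in Gins4, with means of 175 cpm in WT and 97.1 cpm in labelled KO libraries of 1000 cells. Its means at 100 cells were 173 and 110 cpm. No test was run on these sums. In such bulk libraries fewer cells that express a gene and less RNA per cell cannot be told apart.

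The first comparison asked which members differed between the labelled genotypes at each cell number, by the quasi-likelihood F test of edgeR with Benjamini-Hochberg adjustment over all 16816 genes. Ratios below are log2 values of labelled KO over WT with their standard error (SE), 2 libraries against 2. At 1000 cells 16 of 38 members were higher and 6 were lower, 57.9% in all. The background was 41.5% of all genes called (20.9% higher and 20.6% lower), and 57.7% of the 8368 genes that averaged 10 cpm or more (30.4% higher, 27.3% lower), so the share of members called was near that of genes at like levels. Scaled by library size alone, 14 members were higher and 8 lower, and 2776 of all genes were higher and 4290 lower, in place of 3514 and 3465 with TMM. At 100 cells 12 members were higher and 7 lower (50%), against 34.2% of all genes (17.6% higher, 16.6% lower) and 38.5% of genes with at least 10 cpm (17.3% higher, 21.2% lower). The median ratio of the members was 0.07 at 1000 and 0.04 at 100 cells. Over all tested genes the medians were 0.00 at both. At both cell numbers 8 members were higher (Orc2, Orc3, Orc4, Mcm3, Mcm4, Mcm6, Prim2 and Rfc4), 3 were lower (Gins2, Gins3 and Gins4), and none was called in opposite directions. Of all tested genes 7.52% were higher and 9.24% lower at both, and of genes with at least 10 cpm 11% and 13.1%.

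Fewer calls were made at 100 cells with 1 labelled KO library left out, when the spread comes from the WT libraries alone. Without labelled KO replicate 1, 2 members stayed higher and 0 lower, and without replicate 2, 3 and 1. Over all genes, calls went from 2957 higher and 2799 lower to 1158 and 952 without replicate 1 and to 1149 and 917 without replicate 2. Without WT replicate 2, 19 members and 4978 of all genes were called higher. Mcm6 and Pold1 were called under each of the 12 alternatives run. The labelled KO libraries of 100 cells also held transcripts of brain cell types. Mbp, a myelin protein gene, was counted at 1416 and 1360 fragments there and at 15 to 34 in the other 6 libraries, and the summed level of 6 myelin genes was 256 and 263 cpm against 43.0 to 53.6 cpm. The sum of 4 astrocyte genes was 62.4 and 59.0 cpm against 23.5 to 27.7 cpm, and that of 6 neuron genes, mostly Stmn2, was 472 and 491 cpm against 382.5 to 499 cpm. In labelled KO against WT at 100 cells 6 of 6 myelin, 3 of 4 astrocyte and 5 of 6 neuron genes were higher. The remaining 1 of the neuron genes was lower, at a log2 ratio of -0.47. The astrocyte gene Aqp4 was at 38 and 34 fragments there and at 0 or 1 elsewhere. Summed levels of 3 primitive endoderm genes (4.70 and 5.89 cpm) and 3 fibroblast genes (4.70 and 5.14 cpm) compared with 0.679 to 2.97 cpm and 1.59 to 4.09 cpm elsewhere, and the erythroid gene Hbb-bs was counted at 8 and 12 fragments against 0. The part of these transcripts in the member values at 100 labelled KO cells was not tested.

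**Figure D2:**
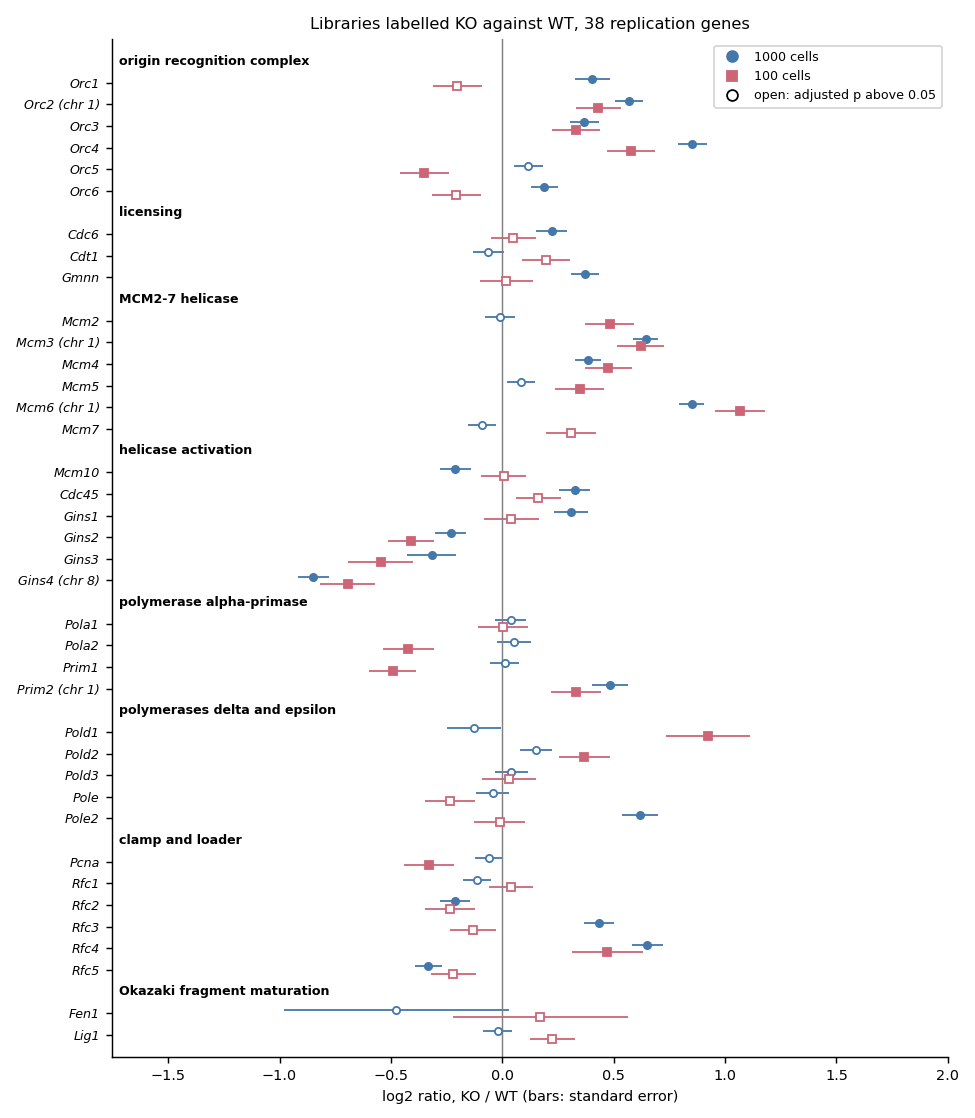
Log2 ratio of labelled KO over WT (horizontal axis, bars are the SE) for each of the 38 members by subcomplex, at 1000 cells (circles) and 100 cells (squares), with filled symbols for an adjusted p of at most 0.05. Mcm6 lay at 0.85 and 1.07 and Gins4 at -0.85 and -0.69, and members on chromosome 1 and Gins4 on chromosome 8 are marked.

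The origin recognition complex binds origins as a ring of Orc1 to Orc5 with Orc6 attached. At 1000 cells 5 of its 6 genes were higher in labelled KO libraries (median ratio 0.39), and at 100 cells 3 were higher and 1 lower (median 0.07). Orc4 (chr2:48902824-48950277) stood at 115 and 121 cpm in WT against 208 and 217 cpm in labelled KO libraries of 1000 cells, and 117 and 125 cpm against 198 and 174 cpm in those of 100 cells. The groups did not overlap at either cell number, and the ratio was 0.85 ± 0.07 (adjusted p = 1.51e-11) at 1000 and 0.58 ± 0.11 (adjusted p = 0.0038) at 100 cells. Orc2 (chr1:58462771-58505109) stood at 146 and 143 cpm in WT against 213 and 217 cpm in labelled KO libraries of 1000 cells, and 145 and 157 cpm against 213 and 207 cpm in those of 100 cells, again without overlap. Its ratios were 0.57 ± 0.06 (adjusted p = 2.01e-08) and 0.43 ± 0.10 (adjusted p = 0.0105). Of Orc2 exon bases, 29.8% overlap Nif3l1 on the other strand. Orc3 (chr4:34570796-34614944) stood at 179 and 164 cpm in WT against 211 and 233 cpm in labelled KO libraries of 1000 cells, and 149 and 173 cpm against 208 and 209 cpm in those of 100 cells, with ratios of 0.37 ± 0.07 (adjusted p = 4.66e-05) and 0.33 ± 0.11 (adjusted p = 0.0407).

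Orc1 and Orc5, both ATP-binding subunits, behaved otherwise. Orc1 (chr4:108579423-108614833) stood at 56.8 and 57.8 cpm in WT against 75.3 and 76.1 cpm in labelled KO libraries of 1000 cells, and 74.5 and 71.0 cpm against 63.6 and 66.7 cpm in those of 100 cells. It was higher at 1000 cells, 0.40 ± 0.08 (adjusted p = 0.000113), while at 100 cells the labelled KO libraries were the lower ones, at -0.20 ± 0.11 (adjusted p = 0.186). Orc5 (chr5:22486485-22550429) stood at 154 and 152 cpm in WT against 169.6 and 162 cpm in labelled KO libraries of 1000 cells, and 166 and 151 cpm against 134 and 124 cpm in those of 100 cells. Its labelled KO libraries lay above WT at 1000 cells, without a call at 0.12 ± 0.07 (adjusted p = 0.159), and below WT at 100 cells at -0.35 ± 0.11 (adjusted p = 0.0333). Orc6 was higher at 1000 cells only by a small margin, 0.19 ± 0.06 (adjusted p = 0.0118). It was not called without WT replicate 1 (adjusted p = 0.113) or labelled KO replicate 2 (adjusted p = 0.0611).

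Of the licensing factors, Gmnn and Cdc6 were higher at 1000 cells, at 0.37 ± 0.06 (adjusted p = 1.6e-05) and 0.22 ± 0.07 (adjusted p = 0.00937), and 0 of 3 genes were called at 100 cells by edgeR, by DESeq2 or at an unadjusted p under 0.05. Gmnn encodes the inhibitor of Cdt1, and its level was 181 and 183 cpm in WT and 229.5 and 241 cpm in labelled KO libraries of 1000 cells, which did not overlap. Cdc6, the loading ATPase, was not called without labelled KO replicate 1 (adjusted p = 0.138). Cdt1, which brings MCM rings to the origin, was called at neither cell number.

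The MCM2-7 genes encode the 6 subunits of the replicative helicase ring. At 1000 cells 3 of 6 were higher (median ratio 0.23), at 100 cells 5 of 6 (median 0.48), and none was lower. Mcm6 (chr1:128331590-128359664), whose promoter window above held the most E2F matches of those shown, stood at 477 and 448 cpm in WT against 836 and 834 cpm in labelled KO libraries of 1000 cells, and 537 and 610.3 cpm against 1231 and 1246 cpm in those of 100 cells. Every labelled KO library lay above every WT library, and the ratios were 0.85 ± 0.06 (adjusted p = 5.12e-13) and 1.07 ± 0.11 (adjusted p = 0.000244), 1.8-fold at 1000 and 2.09-fold at 100 cells. Mcm3 (chr1:20802968-20820312) stood at 346 and 338 cpm in WT against 547 and 522 cpm in labelled KO libraries of 1000 cells, and 367 and 406 cpm against 607 and 618 cpm in those of 100 cells. Its groups were separate too, with ratios of 0.64 ± 0.06 (adjusted p = 3.21e-10) and 0.62 ± 0.11 (adjusted p = 0.00239). Mcm4 (chr16:15623897-15637400) stood at 313 and 304 cpm in WT against 411 and 394 cpm in labelled KO libraries of 1000 cells, and 381 and 353 cpm against 527 and 525 cpm in those of 100 cells, with ratios of 0.38 ± 0.06 (adjusted p = 4.18e-06) and 0.47 ± 0.11 (adjusted p = 0.00816).

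Mcm2 and Mcm5 were called at 100 cells alone and Mcm7 at neither cell number, as the plot of MCM2-7 levels shows by library. Mcm2 (chr6:88883474-88898780) stood at 221 and 230.5 cpm in WT against 242 and 206 cpm in labelled KO libraries of 1000 cells, and 282 and 327 cpm against 437 and 439.9 cpm in those of 100 cells. The WT and labelled KO libraries of 1000 cells overlapped and had a ratio of -0.01 ± 0.07 (adjusted p = 0.922), while those of 100 cells were apart at 0.48 ± 0.11 (adjusted p = 0.00892). Mcm7 (chr5:138164583-138172422) stood at 270.5 and 259 cpm in WT against 259 and 239 cpm in labelled KO libraries of 1000 cells, and 289 and 341 cpm against 397 and 408 cpm in those of 100 cells. Its ratios were -0.09 ± 0.06 (adjusted p = 0.257) and 0.31 ± 0.11 (adjusted p = 0.0584), the latter just short of the threshold. Of the 50-base windows of Mcm7 transcripts, 23.3% also occur in other genes or on the opposite strand of one, so that part of its fragments may have been discarded. Mcm5 (chr8:75109569-75128439) was at 0.08 ± 0.06 (adjusted p = 0.296) and 0.35 ± 0.11 (adjusted p = 0.0342). At 100 cells the calls of Mcm2, Mcm3, Mcm4 and Mcm5 were lost without either labelled KO library, and that of Mcm6 was kept. The ratios themselves were then 0.49 and 0.47 for Mcm2, 0.64 and 0.60 for Mcm3, 0.48 and 0.47 for Mcm4 and 0.34 and 0.35 for Mcm5.

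**Figure D3:**
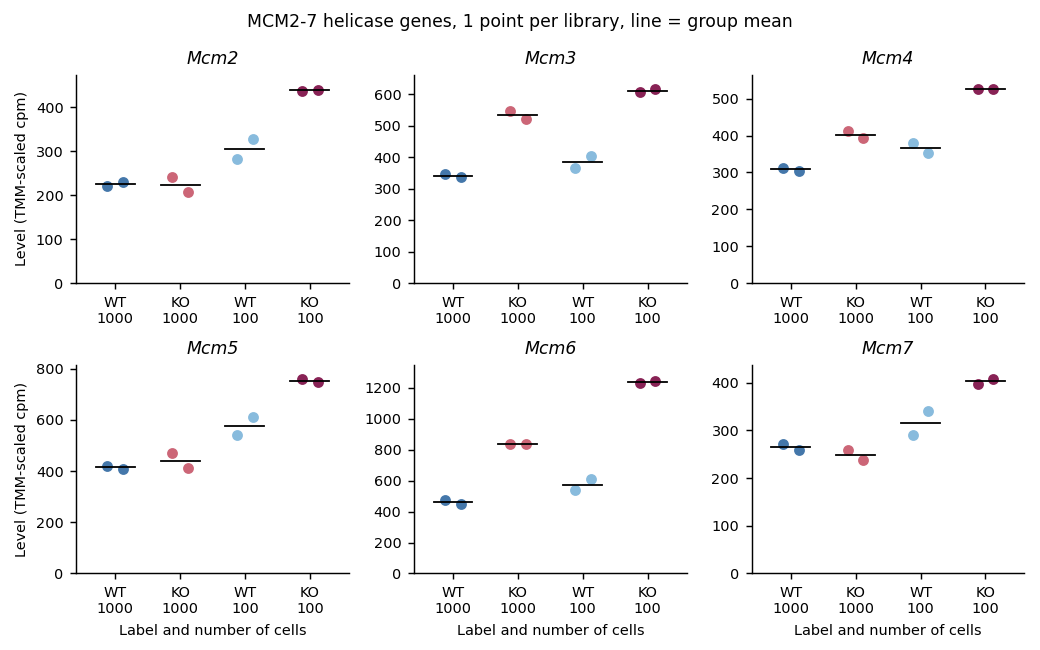
Level in TMM-scaled cpm (vertical axes from 0) of Mcm2 to Mcm7 in each library, with groups by label and number of cells along the horizontal axes, 1 point per library and a line at the group mean. For all 6 genes both labelled KO libraries of 100 cells lay above the other 6 libraries, with Mcm6 at 1231 and 1246 cpm.

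Helicase activation genes were the subcomplex with most lower calls. At 1000 cells 4 of 6 were lower and 2 higher (median ratio -0.22), and at 100 cells 3 were lower and 0 higher (median -0.20). Gins4 (chr8:23226616-23237659), a subunit of the 4-member GINS complex, stood at 177 and 172 cpm in WT against 101 and 93.6 cpm in labelled KO libraries of 1000 cells, and 154 and 192 cpm against 108 and 113 cpm in those of 100 cells. The groups did not overlap, and the ratios were -0.85 ± 0.07 (adjusted p = 3.84e-11) and -0.69 ± 0.12 (adjusted p = 0.00291). Gins3 (chr8:95633453-95645060) stood at 26.1 and 27.4 cpm in WT against 20.2 and 22.6 cpm in labelled KO libraries of 1000 cells, and 23.4 and 25.1 cpm against 16.5 and 17.8 cpm in those of 100 cells, with ratios of -0.32 ± 0.11 (adjusted p = 0.0212) and -0.55 ± 0.14 (adjusted p = 0.0176). Gins2 (chr8:120578633-120589304) stood at 119.9 and 114 cpm in WT against 102 and 98.2 cpm in labelled KO libraries of 1000 cells, and 124 and 134 cpm against 99.0 and 101 cpm in those of 100 cells. Its ratios were -0.23 ± 0.07 (adjusted p = 0.00849) and -0.41 ± 0.10 (adjusted p = 0.0142), and 67.3% of its exon bases overlap Gse1 on the other strand.

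The GINS subunit Gins1 differed from those, with a higher level at 1000 cells, 0.31 ± 0.08 (adjusted p = 0.00167), and no call at 100 cells, 0.04 ± 0.12 (adjusted p = 0.83). Corrected for GC content and length, its ratio at 1000 cells was 0.15 (adjusted p = 0.0774) and not called. Cdc45, the GINS partner at the fork, was higher at 1000 cells at 0.33 ± 0.07 (adjusted p = 0.00039), and all 4 of its labelled KO libraries lay above all 4 WT libraries. Mcm10, which helps activate the loaded helicase, was lower at 1000 cells at -0.21 ± 0.07 (adjusted p = 0.0167). Several of the smaller differences at 1000 cells were not called when 1 library was left out, though the ratios kept their sign. Gins3 was not called without WT replicate 2 (adjusted p = 0.084) or labelled KO replicate 1 (adjusted p = 0.187), Gins2 without WT replicate 1 (adjusted p = 0.0689) or labelled KO replicate 2 (adjusted p = 0.0726), and Mcm10 without labelled KO replicate 1 (adjusted p = 0.122).

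Polymerase alpha-primase makes the RNA-DNA primers of both strands. Prim2, its large primase subunit (chr1:33453810-33669795), stood at 83.2 and 69.5 cpm in WT against 105 and 109 cpm in labelled KO libraries of 1000 cells, and 76.5 and 70.0 cpm against 92.2 and 97.9 cpm in those of 100 cells. The groups were separate, with ratios of 0.48 ± 0.08 (adjusted p = 1.27e-05) and 0.33 ± 0.11 (adjusted p = 0.0455). Prim1, the catalytic primase subunit (chr10:128015168-128030037), stood at 169 and 179 cpm in WT against 171 and 179 cpm in labelled KO libraries of 1000 cells, and 169.7 and 191 cpm against 132 and 132 cpm in those of 100 cells. It overlapped between labels at 1000 cells, 0.01 ± 0.06 (adjusted p = 0.919), and was lower in labelled KO libraries at 100 cells, -0.49 ± 0.11 (adjusted p = 0.00687). Pola2 (chr19:5940542-5964202), the accessory subunit of polymerase alpha, stood at 70.7 and 74.95 cpm in WT against 75.4 and 75.6 cpm in labelled KO libraries of 1000 cells, and 81.1 and 73.0 cpm against 58.1 and 60.5 cpm in those of 100 cells. Its ratios were 0.05 ± 0.08 (adjusted p = 0.607) at 1000 and -0.42 ± 0.12 (adjusted p = 0.0202) at 100 cells. Pola1, the catalytic subunit, was called at neither cell number.

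Of the genes for the fork polymerases, Pold1 (chr7:44532746-44548849), the catalytic subunit of polymerase delta, differed most at 100 cells. It stood at 45.6 and 36.5 cpm in WT against 44.9 and 31.1 cpm in labelled KO libraries of 1000 cells, and 46.7 and 76.7 cpm against 118 and 124 cpm in those of 100 cells. Libraries of 1000 cells overlapped, -0.13 ± 0.12 (adjusted p = 0.428), and at 100 cells both labelled KO libraries were above both WT libraries, 0.92 ± 0.19 (adjusted p = 0.00555), or 1.89-fold. The WT libraries of 100 cells were themselves far apart for this gene. Without WT replicate 1 the ratio was 0.62, and without WT replicate 2 it was 1.33, and the call was kept in both cases. Pold2, a second subunit, was called at 100 cells alone, 0.37 ± 0.12 (adjusted p = 0.0337). Pole2 (chr12:69201773-69228195), the second subunit of polymerase epsilon, stood at 47.8 and 46.8 cpm in WT against 70.9 and 74.5 cpm in labelled KO libraries of 1000 cells, and 49.0 and 52.6 cpm against 52.9 and 51.0 cpm in those of 100 cells. It was 1.54-fold higher at 1000 cells, 0.62 ± 0.08 (adjusted p = 3.63e-07), and its libraries overlapped at 100 cells, -0.01 ± 0.11 (adjusted p = 0.95). Pole and Pold3 were called at neither cell number.

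The clamp and its loader gave calls in both directions. Rfc4 (chr16:23113943-23127737), a small subunit of the RFC loader, stood at 124 and 117 cpm in WT against 180.1 and 198 cpm in labelled KO libraries of 1000 cells, and 103 and 153 cpm against 184 and 182 cpm in those of 100 cells. Its groups did not overlap, although the WT libraries of 100 cells differed by more than those of any other group, and the ratios were 0.65 ± 0.07 (adjusted p = 6.58e-09) and 0.47 ± 0.16 (adjusted p = 0.044). Without WT replicate 1 the ratio at 100 cells was 0.23 and without WT replicate 2 it was 0.79. Rfc3 (chr5:151642756-151651242) stood at 102 and 98.7 cpm in WT against 134 and 137 cpm in labelled KO libraries of 1000 cells, and 119 and 119.7 cpm against 115 and 109.7 cpm in those of 100 cells. It was higher at 1000 cells, 0.43 ± 0.07 (adjusted p = 6.74e-06), while at 100 cells both labelled KO libraries lay below both WT libraries without a call, -0.13 ± 0.10 (adjusted p = 0.341). Rfc5 and Rfc2, also loader subunits, were lower at 1000 cells, at -0.33 ± 0.06 (adjusted p = 6.79e-05) and -0.21 ± 0.07 (adjusted p = 0.0106). Rfc2 was not called without WT replicate 1 (adjusted p = 0.097) or labelled KO replicate 1 (adjusted p = 0.0548). Pcna, the sliding clamp, was lower at 100 cells alone, at -0.33 ± 0.11 (adjusted p = 0.0481), and 19.1% of its transcript windows recur in the pseudogene Pcna-ps2. The Pcna call was lost under 7 of 12 alternatives, over which the ratio ran from -0.44 to -0.19. Rfc1, the large loader subunit, Lig1, the ligase that seals Okazaki fragments, and Fen1 were called at neither cell number.

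Across both cell numbers, 9 members had all 4 labelled KO libraries above all 4 WT libraries (Orc2, Orc3, Orc4, Mcm3, Mcm4, Mcm6, Cdc45, Prim2 and Rfc4). Another 5 had them all below (Gins2, Gins3, Gins4, Rfc2 and Rfc5). Of all tested genes 14.1% lay wholly above and 13.9% wholly below, and of genes with at least 10 cpm 17.7% and 17%.

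Members on chromosome 1, and Gins4 on chromosome 8, had ratios of the same sign as the median of the genes around them. The other 33 members had a median ratio of 0.04 at 1000 and 0.03 at 100 cells. The largest of them at 1000 cells was Orc4 on chromosome 2, at 0.85 (0.58 at 100 cells). The 4 members on chromosome 1 (Mcm3, Mcm6, Orc2 and Prim2) were higher at both cell numbers. The median ratio of 501 chromosome 1 genes with at least 10 cpm was 0.55 at 1000 and 0.45 at 100 cells, and 89.2% and 84.8% of them lay above 0, against medians of 0.02 and -0.04 over 8344 placed genes. Gins4 lies in the first 60 Mb of chromosome 8, where 140 genes had medians of -0.53 and -0.63, while 333 genes further along the chromosome had medians of -0.08 and -0.09. The other chromosome 8 members, Orc6, Cdt1, Mcm5, Gins2 and Gins3, lie in that further part. There Gins2 and Gins3 were lower at both cell numbers, Orc6 was higher at 1000 and Mcm5 at 100 cells, and Cdt1 was called at neither. Without the 4 chromosome 1 members and Gins4, 12 of 33 members were higher and 5 lower at 1000 cells (36.4% and 15.2%). The counts at 100 cells were 8 and 6 (24.2% and 18.2%). Of genes with at least 10 cpm on any chromosome, 30.4% were higher and 27.3% lower at 1000 cells, and 17.3% and 21.2% at 100 cells. Of all tested genes the shares were 20.9% and 20.6%, and 17.6% and 16.6%. The part of chromosome position in these ratios was not tested.

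The second comparison asked how the number of cells, and with it the number of PCR cycles, moved the members within each label. It shares its libraries with the comparison above, so that a value in the labelled KO libraries of 100 cells enters both. In the labelled KO libraries 15 of 38 members were higher at 100 than at 1000 cells and 14 were lower (76.3% called), against 52.1% of all tested genes (27.3% higher, 24.8% lower) and 61.9% of genes with at least 10 cpm (28.6% higher, 33.3% lower). In the WT libraries edgeR called 0 of 38 members and 0.827% of all genes (0.149% higher, 0.678% lower), or 1.46% of those with at least 10 cpm (0.275% higher, 1.18% lower), 7 members were higher and 1 lower at an unadjusted p under 0.05, and DESeq2 called 2 higher. Without WT replicate 1 of 100 cells 12 members were higher and 1 lower, and calls over all genes went from 25 higher and 114 lower to 1170 and 1461. Without WT replicate 2 of 100 cells 8 members were higher and 1 lower, and 1389 and 1212 of all genes. The median ratio of the members was 0.08 in WT and -0.04 in labelled KO libraries. Both medians lay near those of all genes, which were 0.00.

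All 6 MCM2-7 genes were higher at 100 than at 1000 cells in labelled KO libraries, with a median log2 ratio of 100 over 1000 cells of 0.63, and all 6 ratios were above 0 in WT without a call (median 0.27). Mcm2 had the largest of these ratios in labelled KO libraries, 0.97 ± 0.06 (adjusted p = 1.33e-15), against 0.42 ± 0.12 (adjusted p = 0.109) in WT. Mcm5 was at 0.78 ± 0.05 (adjusted p = 5.55e-14) against 0.45 ± 0.11 (adjusted p = 0.0754), and Mcm7 at 0.70 ± 0.05 (adjusted p = 7.07e-13) against 0.24 ± 0.12 (adjusted p = 0.451). Mcm6 was at 0.57 ± 0.05 (adjusted p = 3.15e-12), Mcm4 at 0.39 ± 0.05 (adjusted p = 6.32e-08) and Mcm3 at 0.20 ± 0.05 (adjusted p = 0.00101) in labelled KO libraries. The plot of 100 against 1000 cells shows each subcomplex. The licensing factors Cdt1 and Cdc6 were also higher in labelled KO libraries, at 0.55 ± 0.06 (adjusted p = 4.66e-09) and 0.28 ± 0.06 (adjusted p = 0.000151), as was the ligase Lig1 at 0.58 ± 0.06 (adjusted p = 1.57e-10), while the third licensing gene, Gmnn, was lower at -0.23 ± 0.05 (adjusted p = 0.000483).

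**Figure D4:**
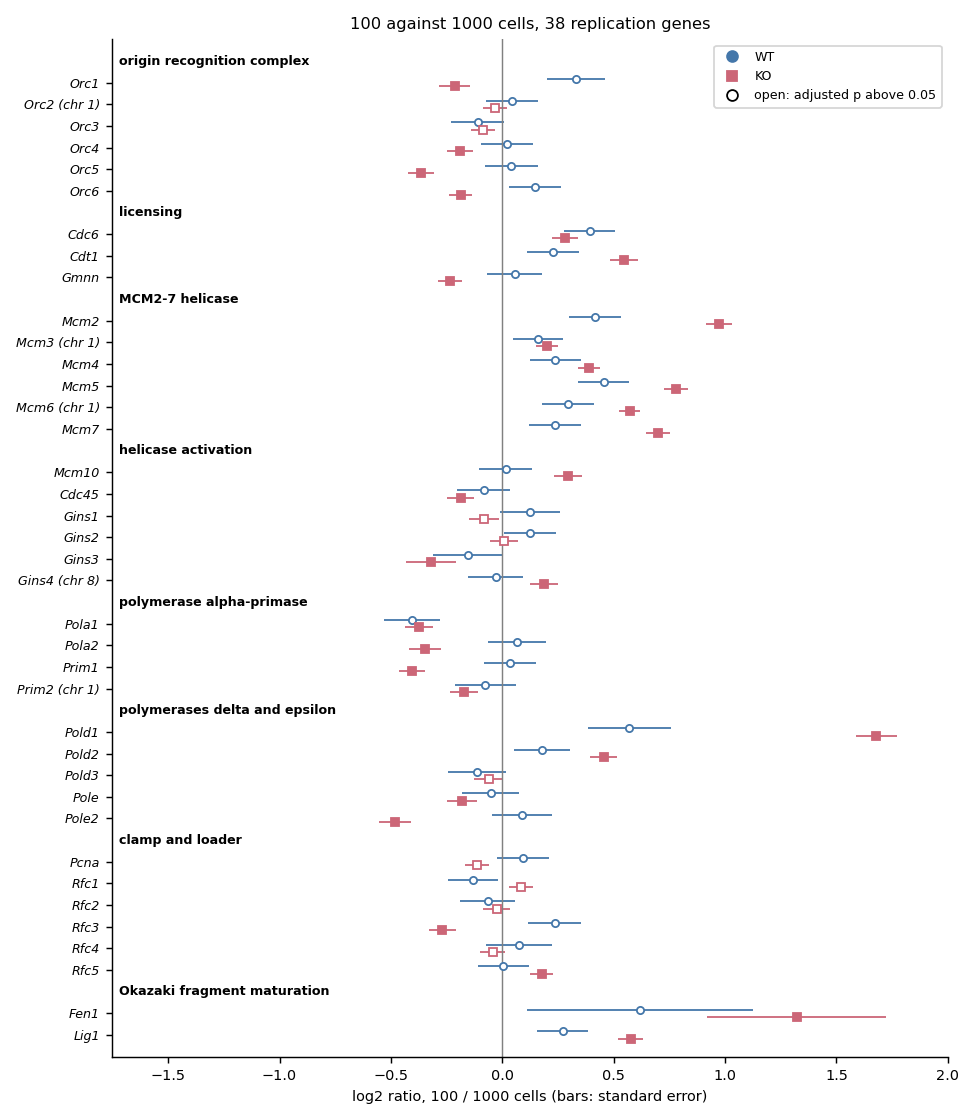
Log2 ratio of 100 over 1000 cells (horizontal axis, bars are the SE) for the 38 members by subcomplex, in WT (circles) and labelled KO libraries (squares), with filled symbols for an adjusted p of at most 0.05. In labelled KO libraries all 6 MCM2-7 genes lay above 0 and all 4 polymerase alpha-primase genes below, with Pold1 furthest at 1.68, and no WT ratio was called.

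Polymerase alpha-primase moved the other way. All 4 of its genes were lower at 100 than at 1000 cells in labelled KO libraries (median -0.36), with Prim1 at -0.41 ± 0.06 (adjusted p = 4e-07), Pola1 at -0.37 ± 0.06 (adjusted p = 6.05e-06), Pola2 at -0.35 ± 0.07 (adjusted p = 0.000105) and Prim2 at -0.17 ± 0.06 (adjusted p = 0.0243). In the origin recognition complex 4 of 6 genes were lower and none higher, with Orc5 at -0.36 ± 0.06 (adjusted p = 4.66e-06). Among the polymerase delta and epsilon genes 2 were higher, 2 were lower and Pold3 was not called. Pold1 was 3.2-fold higher at 100 than at 1000 cells, 1.68 ± 0.09 (adjusted p = 1.05e-16), and Pold2 was at 0.45 ± 0.06 (adjusted p = 9.08e-08), while Pole2 was at -0.48 ± 0.07 (adjusted p = 1.1e-06) and Pole at -0.18 ± 0.07 (adjusted p = 0.0237). The calls of Prim2, Pole, Cdc45, Gins3, Gins4, Fen1, Orc1, Orc4, Orc6 and Rfc5 were lost without at least 1 of the 4 labelled KO libraries, with adjusted p-values of 0.0532 to 0.352 there. Without labelled KO replicate 1 of 100 cells fewer members, and fewer of all tested genes, were called lower.

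Transcript GC content was set beside the ratios. Members higher in labelled KO libraries of 100 cells had a median transcript GC content of 51.9%, and members lower had 45%. Over the 38 members the ratio and GC content had a Pearson r of 0.699 in labelled KO and 0.504 in WT libraries, and over 8344 genes, which share these libraries, 0.453 and 0.376. For labelled KO against WT it was -0.473 at 1000 cells (-0.206 over genes) and 0.155 at 100 cells (0.0272 over genes). For the interaction it was 0.656 (0.252 over genes), with a median GC content of 53.4% for members with a larger and 44.4% for members with a smaller ratio at 100 cells. After each library was corrected for its dependence on GC content and transcript length, 16 members were higher and 12 lower in labelled KO libraries. Over all genes 4457 were higher and 3920 lower. Mcm3 then stood at 0.00 (adjusted p = 0.953) and Orc4 and Orc6 at 0.06 and 0.01. Prim2 stood at -0.03 (adjusted p = 0.681) and Rfc5 at 0.02 (adjusted p = 0.706), and none of these genes was called. The calls of the other 5 MCM2-7 genes were kept, as were those of Pola1, Pola2 and Prim1. Their ratios were smaller under some of the 12 alternatives, which include this correction. The smallest were 0.80 for Mcm2, 0.36 for Mcm4, 0.60 for Mcm5, 0.56 for Mcm6 and 0.48 for Mcm7. They were -0.18 for Pola1, -0.31 for Pola2 and -0.33 for Prim1. The ratio of Pold1 ran from 1.12 to 1.97.

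A test of the difference between the 2 labelled KO to WT ratios, 100 minus 1000 cells, was made by the interaction of genotype and cell number over all 8 libraries. It called 9 of 38 members (23.7%), against 16.3% of all tested genes and 20.7% of genes with at least 10 cpm. Of these, 3 had a larger ratio at 100 cells (7.89% of members, 9.28% of all genes, 10.7% of those with at least 10 cpm) and 6 a smaller one (15.8% of members, 7.05% and 10% of genes). Pold1 differed by 1.08 ± 0.27 (adjusted p = 0.0172), Mcm2 by 0.54 ± 0.14 (adjusted p = 0.0191) and Mcm7 by 0.44 ± 0.13 (adjusted p = 0.035). For these 3 genes the plot of members with an interaction shows both labelled KO libraries of 100 cells above the rest. For Pole2 the difference was -0.59 ± 0.14 (adjusted p = 0.0115), for Orc1 -0.56 ± 0.13 (adjusted p = 0.0114) and for Rfc3 -0.52 ± 0.12 (adjusted p = 0.0107). Orc1, Pole2 and Rfc3 were higher in labelled KO libraries at 1000 cells, and their labelled KO ratio was near or below 0 at 100 cells. Prim1 at -0.46 ± 0.13 (adjusted p = 0.0239), Pola2 at -0.43 ± 0.13 (adjusted p = 0.041) and Orc5 at -0.42 ± 0.12 (adjusted p = 0.0334) had labelled KO libraries of 100 cells below all others. No interaction call was kept without labelled KO replicate 1 or 2 of 100 cells (adjusted p-values of 0.052 to 0.183) or labelled KO replicate 2 of 1000 cells (0.0616 to 0.166), and 1, 2 and 5 of the 9 were kept without WT replicate 1, WT replicate 2 and labelled KO replicate 1 of 1000 cells. Without WT replicate 1 of 100 cells 5 members had a larger and 12 a smaller ratio, and without WT replicate 2 of 100 cells 9 had a larger one. Over all genes, where 1560 had a larger and 1185 a smaller ratio, the counts were 553 and 329 without labelled KO replicate 1 of 100 cells and 480 and 247 without replicate 2, and 2396 and 2367 without WT replicate 1 of 100 cells and 3058 and 2575 without replicate 2.

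**Figure D5:**
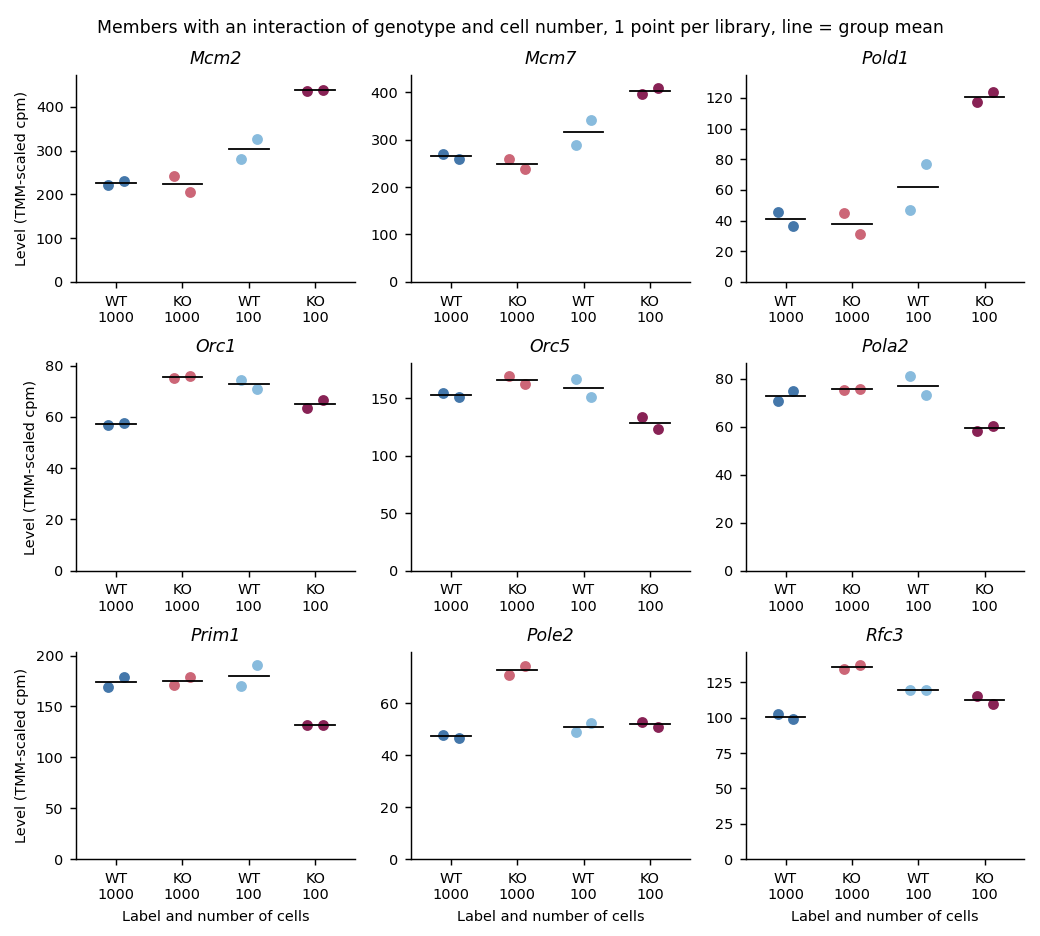
Level in TMM-scaled cpm (vertical axes from 0) of the 9 members with an interaction of genotype and cell number, with groups by label and number of cells along the horizontal axes, 1 point per library and a line at the group mean. Pold1 stood at 118 and 124 cpm in labelled KO libraries of 100 cells and at 46.7 and 76.7 cpm in WT libraries of 100 cells.

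Other genes of the same processes were counted beside the members, and the called genes with the largest ratios of each list are named. Of 35 further initiation and fork genes 9 were higher and 12 lower at 1000 cells (60% called, median ratio 0.02), and 2 and 7 at 100 cells (25.7% called, median -0.02). Beside these, 41.5% of all tested genes were called at 1000 and 34.2% at 100 cells. For genes with at least 10 cpm the shares were 57.7% and 38.5%. Chaf1a, a subunit of the histone chaperone CAF-1, was lower in labelled KO libraries of 1000 cells, -0.82 ± 0.12 (adjusted p = 3.35e-06), and higher in those of 100 cells, 0.65 ± 0.21 (adjusted p = 0.0386). Its counts were 636 and 445 (WT) and 320 and 245 (labelled KO) at 1000 cells and 217 and 500 and 642 and 644 at 100 cells, so that 1 of the WT libraries of 100 cells lay far below the other. At 1000 cells the helicase gene Recql4, measured at 5.13 ± 1.01 cpm (SD, n = 2) in WT, was lower at -0.84 ± 0.24 (adjusted p = 0.0056), and Dtl, which directs the destruction of Cdt1 and lies on chromosome 1, was higher at 0.76 ± 0.07 (adjusted p = 6.89e-10). At 100 cells Mcm8, a paralog of the MCM2-7 genes that acts in recombination, was lower at -1.01 ± 0.14 (adjusted p = 0.00092), as was Ticrr, which helps load Cdc45, at -0.57 ± 0.13 (adjusted p = 0.00933).

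Of 9 nucleotide supply genes 1 was higher and 4 lower at 1000 cells (55.6% called, median -0.10), and 0 and 5 at 100 cells (55.6% called, median -0.37). The shares of genes with at least 10 cpm were 57.7% and 38.5%, and those of all tested genes 41.5% and 34.2%. Dut, which removes dUTP, stood at 289 ± 4.18 cpm (SD, n = 2) in WT and 181 ± 10.7 cpm in labelled KO libraries of 1000 cells, -0.67 ± 0.06 (adjusted p = 7.49e-10), and was lower at 100 cells too, -0.65 ± 0.13 (adjusted p = 0.00447). Dctpp1, another nucleotide pyrophosphatase, was lower at both, -0.23 ± 0.06 (adjusted p = 0.00344) and -0.56 ± 0.13 (adjusted p = 0.00979), and the kinase gene Dck at 100 cells, -0.47 ± 0.12 (adjusted p = 0.0133). Rrm2, a subunit of ribonucleotide reductase, was the gene that was higher at 1000 cells, 0.33 ± 0.06 (adjusted p = 1.65e-05).

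Of 25 genes of G1/S control 7 were higher and 5 lower at 1000 cells (48% called, median 0.01), and 4 and 6 at 100 cells (40% called, median -0.14). The shares of all tested genes were 41.5% and 34.2%, and those of genes with at least 10 cpm 57.7% and 38.5%. Tfdp1, the dimerization partner of E2F factors, lies in the same early part of chromosome 8 as Gins4 and was at 250 ± 10.2 cpm in WT and 108 ± 1.82 cpm in labelled KO libraries of 1000 cells, -1.21 ± 0.07 (adjusted p = 6.46e-15). E2f5 was higher at 1000 cells, 0.58 ± 0.09 (adjusted p = 1.23e-05). At 100 cells Rb1, the retinoblastoma gene, was higher, 1.45 ± 0.19 (adjusted p = 0.000645), and E2f3 lower, -1.41 ± 0.22 (adjusted p = 0.00164), at means of 7.21 to 24.2 cpm. Cdkn2a, a cell cycle inhibitor gene, was called lower at both cell numbers on counts of 22 and 11 (WT) and 3 and 2 (labelled KO) at 1000 cells and 6 and 17 and 0 and 0 at 100 cells. Of 18 G2/M genes 6 were higher and 3 lower at 1000 cells (50% called, median 0.04), and 3 and 0 at 100 cells (16.7% called, median 0.13). Cenpf, a kinetochore gene on chromosome 1, was higher at both, 0.44 ± 0.06 (adjusted p = 6.81e-07) and 0.70 ± 0.10 (adjusted p = 0.00106), Ccnb2, a mitotic cyclin, at 1000 cells, 0.47 ± 0.06 (adjusted p = 1.71e-07), and the spindle genes Tpx2 and Kif11 at 100 cells, 0.32 ± 0.10 (adjusted p = 0.0317) and 0.31 ± 0.10 (adjusted p = 0.0453). Cenpe, a kinetochore motor, was lower at 1000 cells, -0.27 ± 0.07 (adjusted p = 0.00162).

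Between 100 and 1000 cells in labelled KO libraries, 9 of the 35 further replication genes were higher and 14 lower (65.7% called). Of the other lists, 0 of 9 nucleotide supply genes were higher and 6 lower (66.7%), 8 of 25 G1/S genes higher and 8 lower (64%), and 5 of 18 G2/M genes higher and 6 lower (61.1%). The share called was 52.1% of all tested genes and 61.9% of genes with at least 10 cpm. The clamp-loader gene Chtf18 was higher there, 1.32 ± 0.13 (adjusted p = 1.39e-10), with Recql4 at 1.43 ± 0.20 (adjusted p = 2.9e-07) and Chaf1a at 1.22 ± 0.11 (adjusted p = 1.66e-11). Of the nucleotide supply genes Samhd1, which degrades dNTPs, was at -0.34 ± 0.08 (adjusted p = 0.000681), the thymidylate synthase gene Tyms at -0.29 ± 0.06 (adjusted p = 4.64e-05) and Dck at -0.29 ± 0.08 (adjusted p = 0.0024). Cyclin D2 (Ccnd2) was at -0.88 ± 0.11 (adjusted p = 1.31e-08), E2f3 at -0.83 ± 0.15 (adjusted p = 1.86e-05) and the pocket protein gene Rbl2 at -0.77 ± 0.16 (adjusted p = 0.000107). Of the G2/M genes Cdc20, an activator of the anaphase-promoting complex, was at 0.57 ± 0.06 (adjusted p = 4.78e-09), the mitotic kinesin gene Kif20a at 0.49 ± 0.06 (adjusted p = 1.31e-08) and Cenpe at -0.33 ± 0.06 (adjusted p = 1.04e-05). In WT libraries 1 further replication gene, Rif1, was lower, -0.60 ± 0.11 (adjusted p = 0.0267), as were Cenpf and Cenpe of the G2/M genes, -0.60 ± 0.11 (adjusted p = 0.0257) and -0.56 ± 0.12 (adjusted p = 0.0433). These were 2.86% and 11.1% of their lists, where 0.678% of all tested genes and 1.18% of genes with at least 10 cpm were lower. The interaction called 2 and 4 of the 35 further replication genes (17.1%), 0 and 1 of the nucleotide supply genes (11.1%) and 3 and 3 of the G1/S genes (24%). It called 0 of the G2/M genes (by edgeR, with 6 and 1 at an unadjusted p under 0.05). The share called was 16.3% of all tested genes and 20.7% of genes with at least 10 cpm. The difference between the ratios was 1.5 ± 0.28 (adjusted p = 0.0041) for Chaf1a, -0.76 ± 0.17 (adjusted p = 0.00822) for Cdc7, a kinase that triggers origin firing, and 0.61 ± 0.15 (adjusted p = 0.0159) for Clspn, a fork protein. It was -0.41 ± 0.14 (adjusted p = 0.0491) for Dck, -1.15 ± 0.26 (adjusted p = 0.0101) for E2f3, -0.98 ± 0.20 (adjusted p = 0.006) for Ccnd2 and 0.92 ± 0.24 (adjusted p = 0.0194) for Rb1.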

How the data were processed

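The samples were 8 SMARTer Ultra Low RNA-seq libraries, 2 for each label (labelled KO or WT) and cell number (100 or 1000). The deposited values are counts per gene: the authors removed ribosomal RNA reads with Bowtie2 2.1.0, aligned the rest to mm10 with TopHat2 2.0.10 and counted them over GENCODE M4 with htseq-count (HTSeq 0.6.1, union mode, no strand), which discards ambiguous and multiply mapped reads. CASAVA 1.8.2 is also named in the processing notes of the submitters. Totals of 9666985 to 16686525 counts per library set the precision.

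A gene was kept when 1 of the 8 libraries or more held 10 counts (16816 of 43309). The test was the quasi-likelihood one of edgeR 4.0.16 (R 4.3.3) on TMM-scaled counts, p-values were adjusted across the 16816 genes by the Benjamini-Hochberg method, and 0.05 was the limit for a call. Each genotype or cell number comparison used its own 4 libraries and the interaction used all 8. The SE is the size of the log2 ratio divided by the square root of F. The procedure was tested on simulated data. Alternatives were 2 other filters, other scalings, DESeq2 1.42.0, a replicate block, 1 fit of all libraries and leaving out each library. GC and length offsets and the crossed block were added after seeing the data. The series record and the article describe clones as biological replicates, but neither says which clone gave which library. The p-values measure the spread between these libraries, and how far it is technical cannot be told. Replicates differed by more than sampling noise (chi-square per gene of 3.88 and 4.49 for WT and labelled KO at 1000 cells and 2.57 for labelled KO at 100 cells), and those of WT at 100 cells stood apart at 26.6.

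All 38 members are named by subcomplex, with full values for those called at both cell numbers or in the interaction. From 4 lists of related genes, up to 3 called genes with the largest ratios in a comparison are named. The members and lists were chosen with earlier results of these data known. Positions are from GENCODE M21 (GRCm38), which held 42425 of the 43309 identifiers (97.96%). Promoter windows are from RefSeq (GRCm38.p6).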

Additional observations from a re-analysis of the deposited data

Results flagged for a closer look

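The ratio of labelled KO to WT differed between 100 and 1000 cells for 9 of the 38 members by the interaction test of edgeR over 8 libraries. The log2 difference, 100 minus 1000 cells, was 1.08 for Pold1, 0.54 for Mcm2 and 0.44 for Mcm7, whose ratio was larger at 100 cells. It was -0.59 for Pole2, -0.56 for Orc1, -0.52 for Rfc3, -0.46 for Prim1, -0.43 for Pola2 and -0.42 for Orc5, whose ratio was smaller at 100 cells. Across all tested genes 16.3% were called by this test, and 0 of the 9 members were called when either labelled KO library of 100 cells was left out. Both of those libraries held transcripts of brain cell types, whose part in these values was not tested. Groups of 2 libraries are too small to examine for a single outlying library.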

How the results depend on the processing

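Members called at 1000 cells (16 higher, 6 lower) kept their direction under each alternative, and 15 of 22 stayed called under all 12. At 100 cells 2 of 19 did, in labelled KO cells between cell numbers 17 of 29, and in the interaction 0 of 9. In 1 fit of all 8 libraries 2 members were lower at 1000 cells and 6 in labelled KO libraries of 100 cells, and 4 were higher and 1 lower in WT libraries. Over all genes that fit gave 2613 and 2742 lower, and 241 higher and 435 lower in WT. With DESeq2 4 members were lower at 100 cells (2000 of all genes), 9 were lower in labelled KO libraries of 100 cells (2565) and 2 were higher in WT (57). With no filter beyond 1 count 7 members were higher at 100 cells (2560 of all genes), and 3 in WT (136). Scaled by library size alone, the median ratio at 1000 cells was -0.0159 and summed levels were 6465 cpm (WT) and 7070 cpm (labelled KO) at 1000 cells and 8315 cpm in labelled KO libraries of 100 cells. With GC and length offsets the median ratio was 0.105 at 100 cells and 0.0447 between cell numbers in labelled KO libraries, where it was -0.021 with a filter of at least 10 counts in every library.

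When each library was left out in turn, the numbers of members and of all tested genes called changed with the library in every comparison. The median ratio of the members in labelled KO against WT was 0.0601 to 0.136 at 1000 cells and 0.0334 to 0.177 at 100 cells. Between cell numbers it was 0.0611 to 0.158 in WT and -0.0462 to -0.017 in labelled KO libraries. The median difference in the interaction was -0.1 to 0.024.

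Some ratios that were not called with all libraries changed sign. At 1000 cells Prim1 was at -0.0012 with at least 10 counts in every library, -0.0754 by library size alone and -0.0921 with GC offsets. By library size alone Mcm5 was at -0.0002 and Pola2 at -0.0316, and with GC offsets Orc5 was at -0.0218, Mcm2 at 0.0367 and Pold1 at 0.122. Without 1 library of 1000 cells Prim1 ran from -0.0311 to 0.0511, Mcm5 from -0.0083 to 0.18, Mcm2 from -0.123 to 0.102 and Pold1 from -0.405 to 0.121. Pold1 was called lower without labelled KO replicate 1 (adjusted p = 0.00451) or WT replicate 2 (adjusted p = 0.0454), and Mcm5 higher without labelled KO replicate 2 (adjusted p = 0.0305). At 100 cells Pole2 was at 0.0145 with at least 10 counts in every library, 0.008 with no filter beyond 1 count, 0.0318 in 1 fit of all libraries and 0.0593 with GC offsets, and ran from -0.0518 to 0.0486 without 1 library. The called ratios of Orc4 and Orc6 between cell numbers in labelled KO libraries became 0.0562 and 0.0063 with GC offsets. The cause of these changes was not tested.

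Deviations of same-numbered libraries had correlations of 0.154 between WT and labelled KO at 1000 cells and 0.17 at 100 cells. Between cell numbers they ran from -0.124 to -0.018. With 2 libraries per group these values cannot show whether replicate numbers pair the samples. With the replicate number as a block, 17 members were higher and 6 lower at 1000 cells, 13 and 7 at 100 cells, 0 and 0 between cell numbers in WT, 15 and 14 in labelled KO libraries, and 3 and 6 in the interaction. Over all genes, in the same order, the counts were 3739 and 3687, 3327 and 3106, 60 and 225, 4606 and 4150, and 1503 and 1181. With the numbers crossed between the WT groups 3 members were higher at 100 cells in WT, and 141 of all genes were higher and 371 lower. Where a library was left out of a group, the remaining one was assumed to vary like those of the other groups in the fit. Apart from Fen1, whose lowest count was 8, each member had at least 221 counts in every library.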
